A study of Mus musculus with 6 samples.

Results

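Heat shock chaperones are the proteins that fold new or damaged proteins in the cytosol and in mitochondria. The 10 genes listed for the group were Hsp90aa1, Hsp90ab1, Hspa1a, Hspa1b, Hspa8, Hsph1, Dnajb1 and Bag3 of the cytosol, and Hspd1 and Hspe1 of the mitochondrial matrix. A gene was represented by the array row that the platform annotation gave to that 1 symbol, and by the brightest such row, by mean over the 6 arrays, where there were several. This gave values for 9 of the 10 genes, among 21506 genes tested in all; Hsp90ab1, the constitutive HSP90 gene, is not analysed here. The cytosolic set therefore held 7 measured genes and the mitochondrial set 2.

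The study compared the left ventricle of 3 sickle mice with that of 3 control mice, 1 Affymetrix mouse gene array per animal, all males of 10 to 14 weeks on a mixed B6;129 background. Sickle mice were homozygous for the Hbbtm2(HBG1,HBB*)Tow allele, which places human gamma- and sickle beta-globin at the mouse beta-globin locus. Control mice carried Hbbtm3(HBG1,HBB)Tow instead, with a non-sickling human beta-globin, and both groups carried the human alpha-globin allele Hbatm1(HBA)Tow, so the controls were not wild-type mice. Electrocardiograms under isoflurane are described for the study, and the labels do not say whether the mice on the arrays had them. Values are log2 RMA values, and differences are sickle minus control.

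In unstressed cells the heat shock factor Hsf1 is held inactive by chaperones. When unfolded proteins draw the chaperones away, Hsf1 forms trimers that bind heat shock elements, inverted repeats of the unit GAA, and switch on genes such as Hspa1a, Hspa1b, Hsph1, Dnajb1 and Bag3. Hspa8 and much of the HSP90 pool are made at all times, and in heart muscle these chaperones serve sarcomere assembly and recovery from ischaemia. Hspd1 (HSP60) and Hspe1 (HSP10) form the ring and the lid of the matrix chaperonin, and their genes lie head to head and share a promoter.

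Promoter sequences were available from RefSeq (GRCm38.p6) for 7 of the 10 genes. The 250 bases before each listed start were searched on both strands for GAANNTTC and TTCNNGAA, the 2-unit forms of the element, and for their 3-unit forms, in which 1 more alternating unit follows after 2 further free bases, so that each holds both shorter ones. The 7 genes had 10 windows, of which 6, from 5 genes, held at least 1 of the 2-unit forms, against 12.8% of all 32851 windows. These windows were not independent. Both Hsph1 windows held the same match, and Hspd1 and Hspe1 shared their matches. The matches of Hspa1a and Hspa1b lay in near-identical sequences. A 3-unit form lay in 2 of the 10 windows, against 0.466% of all windows, and these 2 are the same site seen from Hspd1 and from Hspe1. No match was found in these windows of Dnajb1 or Bag3. The sequences below are shown because they place the elements of the mitochondrial pair and of the inducible HSP70 pair whose values follow; capitals mark the matches.

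The stretch between Hspd1 and Hspe1, read in the direction of Hspe1, is chr1:55088053-55088082 on the plus strand. The stretch of Hsph1, on the minus strand, is chr5:149636351-149636380.
Hspe1: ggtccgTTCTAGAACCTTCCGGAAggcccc
Hsph1: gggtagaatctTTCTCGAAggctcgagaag

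The Hspe1 start and the nearest Hspd1 start before it were 215 bases apart, and the run in capitals, holding 2 overlapping 3-unit forms, lay within that interval. The full 250 bases before the starts of Hspa1a (chr17:34972157-34972406, minus strand) and Hspa1b (chr17:34959239-34959488, minus strand) are as follows.
Hspa1a: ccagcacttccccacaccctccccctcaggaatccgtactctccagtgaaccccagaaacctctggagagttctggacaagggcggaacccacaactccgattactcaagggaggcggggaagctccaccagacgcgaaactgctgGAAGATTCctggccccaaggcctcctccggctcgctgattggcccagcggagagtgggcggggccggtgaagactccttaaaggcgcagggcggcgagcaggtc
Hspa1b: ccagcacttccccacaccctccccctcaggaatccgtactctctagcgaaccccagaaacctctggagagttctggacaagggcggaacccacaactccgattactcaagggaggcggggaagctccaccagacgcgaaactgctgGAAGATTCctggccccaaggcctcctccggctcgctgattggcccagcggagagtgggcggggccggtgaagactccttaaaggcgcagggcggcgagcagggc

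These 2 promoters were identical at 247 of 250 positions. The 3 differences, written with the Hspa1a base first, the position from 1 at the 5′ end and the Hspa1b base last, were C44T, T47C and T249G. The single match, GAAGATTC, lay 97 to 104 bases before the start in both genes.

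No heat shock chaperone passed the test between sickle and control ventricle. In limma with Benjamini-Hochberg adjustment over all 21506 genes, 0 of the 9 measured members had an adjusted p under 0.05, where 0.181% of all genes did (0.167% higher and 0.0139% lower in sickle). At an unadjusted p under 0.05 there were 2 of 9, Hsp90aa1 and Hspe1, against 8.69% of all genes. The 3 sickle values lay apart from the 3 control values for 3 of 9 members, against 16.0% of all genes: Hsp90aa1 was higher in every sickle array, and Hspd1 and Hspe1 were lower. In the other 6 the groups overlapped. An exact permutation test over 3 against 3 arrays allows no p below 0.1, so it could not pass 0.05 for any member. The extraction protocol names 3 mice per group and the titles number 3 replicates, so an array was taken as a mouse.

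**Figure D1:**
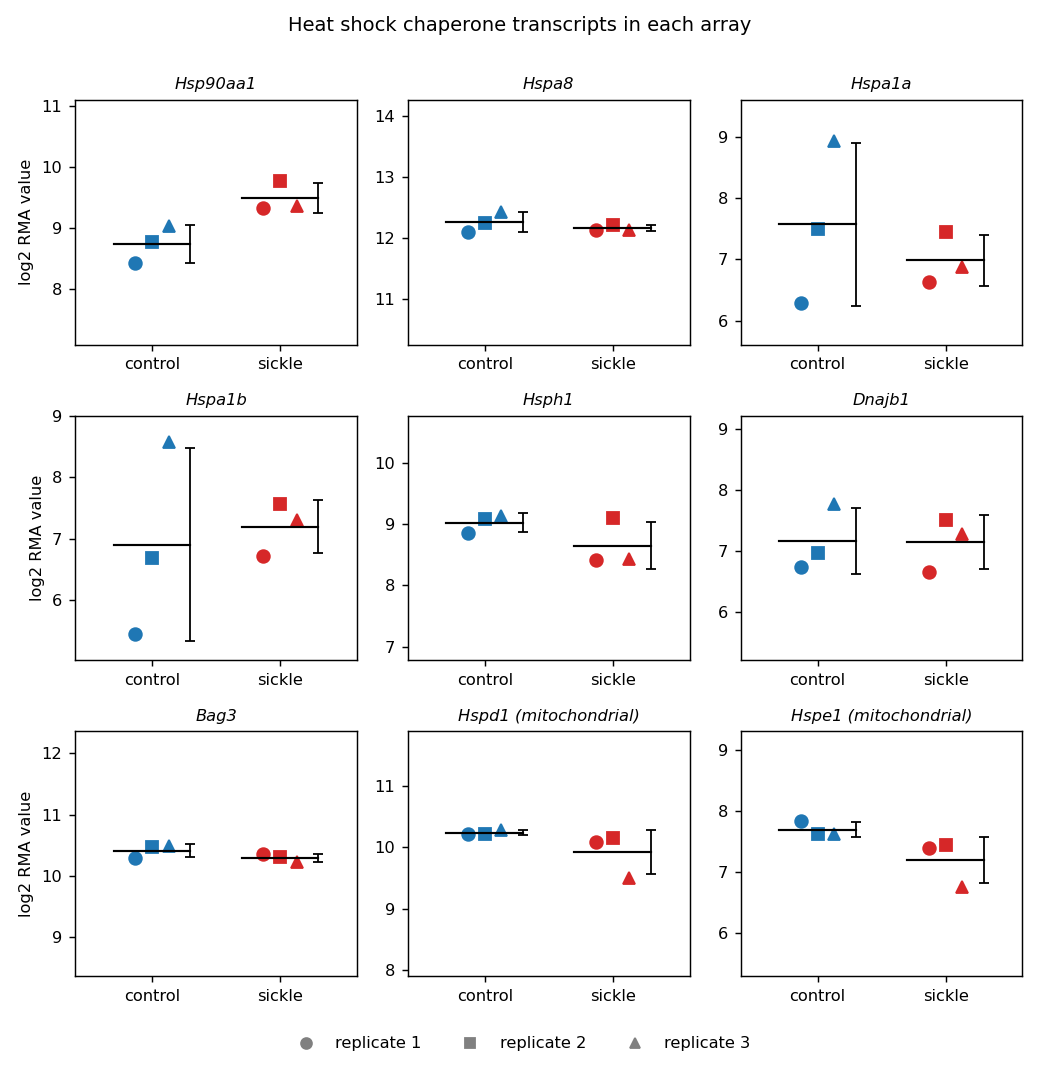
Log2 RMA values of the 9 measured chaperone genes in each of 3 control (blue) and 3 sickle (red) arrays; symbols mark the replicate number, the horizontal line is the group mean and the bar its SD (n = 3), and every panel spans 4 log2 units. Hspa1a and Hspa1b are spread over more than 2.6 units in the controls, and Hsp90aa1, Hspd1 and Hspe1 are the 3 genes whose groups do not overlap.

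The cell make-up of the tissue and the arrays that stand apart bear on all that follows. The 9 cardiomyocyte markers were bright in every array (Myh6, alpha myosin, from 13.16 to 13.28), with list medians from -0.10 to 0.09 against the control mean. Myl2 was the dimmest of them, at 8.57 in sickle replicate 3 and from 9.15 to 9.31 in the other 5 arrays. Control replicate 3 had the atrial transcripts Sln at 8.08 and Myl7 at 7.75. The other 5 arrays ranged from 3.10 to 3.36 for Sln and from 4.31 to 4.78 for Myl7. Myl4 was also highest there, at 5.93 against 5.02 to 5.55. Bmp10 (5.01) was below control replicate 2 (5.33), and Nppa (12.74) was below every sickle array (12.97 to 13.66). The median of the 5 atrial markers was 0.57 in control replicate 3 and from -0.49 to -0.22 elsewhere. Sickle replicate 3 stood apart on the first principal component (43.3, others -15.1 to -2.3). Its medians over 9 fibroblast and 9 macrophage markers were 1.52 and 1.38, where no other array lay outside -0.12 to 0.14. All 8 measured red-cell markers were above every control value in all sickle arrays (list medians 1.34, 1.95 and 1.92). The 7 measured lymphocyte markers had a median difference of 0.33, all 7 above 0, and the 7 endothelial markers one of 0.10, with 5 above and 2 below 0. In bulk tissue, fewer cells of a type and less RNA per cell cannot be told apart.

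Hsp90aa1 encodes the stress-inducible cytosolic HSP90, which holds kinases, steroid receptors and myosin in a foldable state. It measured 8.42, 8.78 and 9.04 in control replicates 1, 2 and 3, and 9.33, 9.77 and 9.37 in sickle replicates 1, 2 and 3. Every sickle array was above the brightest control, and Hsp90aa1 was the one cytosolic member whose ranges within both groups (0.62 and 0.44) were smaller than the difference between them. The difference was 0.74 ± 0.18 (SE; 95% interval 0.31 to 1.17), or 1.675-fold, with a limma adjusted p of 0.375 and an unadjusted p of 0.00420. With any 1 array left out it lay between 0.58 and 0.89, with limma adjusted p from 0.353 to 0.772. With control replicate 3 and sickle replicate 3 both left out it was 0.95. The red-cell markers were also high in all 3 sickle arrays; their part in the Hsp90aa1 value was not tested.

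Hspa8, the constitutive cytosolic HSP70 that also uncoats clathrin vesicles, measured 12.10, 12.25 and 12.42 in the controls and 12.14, 12.22 and 12.13 in the sickle arrays. All 3 sickle values lay within the control range, and the difference was -0.09 ± 0.11 (95% interval -0.35 to 0.16). A pair of dimmer rows with the same symbol read differently. They had 9.92, 9.98 and 10.08 in control against 9.60, 9.80 and 9.63 in sickle for the first row, and 9.94, 9.99 and 10.07 against 9.61, 9.76 and 9.62 for the second. In both dimmer rows every sickle array was below every control array, by -0.32 ± 0.10 and -0.33 ± 0.10, with limma adjusted p of 0.480 and 0.437 over all 25293 rows. The rows of Hspa8 thus disagreed in size, and none passed; with the mean over the 3 rows in place of the brightest, the difference was -0.25.

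Hspa1a and Hspa1b are near-identical neighbouring genes for the stress-inducible HSP70, and probes of one can bind transcripts of the other. Hspa1a measured 6.28, 7.49 and 8.93 in control replicates 1, 2 and 3 and 6.62, 7.44 and 6.88 in the sickle arrays. Control replicate 3 was the brightest of the 6 arrays and control replicate 1 the dimmest, so the sickle mice lay inside the control range. Hspa1b measured 5.44, 6.69 and 8.58 in the controls and 6.71, 7.57 and 7.31 in the sickle arrays, again all within the control range.

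The spread between control mice was 6.30-fold for Hspa1a and 8.83-fold for Hspa1b, against 1.76-fold and 1.81-fold between sickle mice. By SD between the control arrays, Hspa1b (1.58) ranked 4 and Hspa1a (1.33) ranked 6 of 21506 genes, behind Hamp, Sln and Myl7 and, for Hspa1a, Plekha7 (the neighbours in rank were named after their values were seen). In the sickle arrays 5.49% of genes had a larger SD than Hspa1b and 6.33% than Hspa1a. The atrial markers Sln, Myl7 and Myl4 were highest in the same array as the HSP70 pair, while Nppa and Bmp10 were not. The part of the atrial markers in these values was not tested.

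The group differences of the pair were small against this spread: -0.59 ± 0.59 for Hspa1a (95% interval -1.96 to 0.78, limma adjusted p = 0.786) and 0.29 ± 0.69 for Hspa1b (-1.32 to 1.90, limma adjusted p = 0.918). Single control arrays set their signs. Without control replicate 3 Hspa1a turned to 0.09, and without control replicate 1 it was -1.23 (limma unadjusted p = 0.0260, adjusted p = 0.761). Hspa1b turned to -0.44 without control replicate 1, and without control replicate 3 it was 1.13 (limma unadjusted p = 0.0275, adjusted p = 0.766). A dim row assigned to both genes had 4.42, 4.33 and 5.40 in control and 4.34, 4.90 and 4.13 in sickle, with control replicate 3 again the highest.

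Within each array, the Hspa1b value minus the Hspa1a value was -0.84, -0.80 and -0.35 in the controls and 0.09, 0.13 and 0.43 in the sickle arrays. The groups did not overlap, with means of -0.66 ± 0.27 and 0.22 ± 0.19 (SD, n = 3), so that Hspa1b stood 0.88 higher relative to Hspa1a in sickle. The level of one row against the other has no meaning on an array, so it is the shift between groups that is read here. This contrast was chosen after the values were seen and is given without a test. Sequence variants under the probes of these rows were not examined, and the mice were of mixed background.

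**Figure D2:**
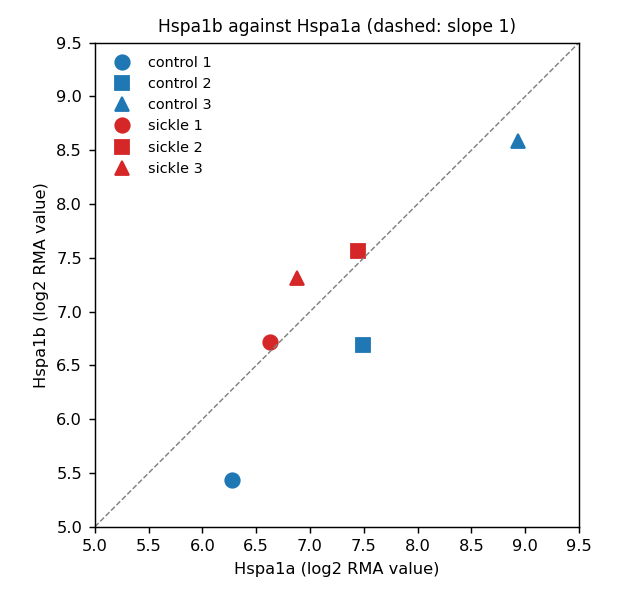
Hspa1b (vertical axis) against Hspa1a (horizontal axis), log2 RMA values, 1 point per array, control in blue and sickle in red, with a dashed line of slope 1. Control 1 is lowest and control 3 highest on both axes; the 3 control points lie below the dashed line and the 3 sickle points above it.

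Hsph1 encodes HSP110, which exchanges nucleotide on HSP70 and is among the classic Hsf1 targets. It measured 8.85, 9.09 and 9.13 in control and 8.42, 9.10 and 8.43 in sickle. Sickle replicates 1 and 3 were below every control array while sickle replicate 2 was within the control range, and the difference was -0.37 ± 0.19 (95% interval -0.83 to 0.08, limma adjusted p = 0.619). Leaving out sickle replicate 2 made it -0.60 (unadjusted p = 0.00230, limma adjusted p = 0.281), and leaving out sickle replicate 1 made it -0.26.

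Dnajb1 encodes HSP40, the partner that delivers clients to HSP70 and feeds back on Hsf1. It measured 6.74, 6.97 and 7.77 in control and 6.66, 7.51 and 7.28 in sickle. The groups overlapped almost fully, with a difference of -0.01 ± 0.30 (95% interval -0.72 to 0.70); an increase or decrease of up to about 0.7 log2 units could not be told from none. Its sign turned without control replicate 3 (0.295) or without sickle replicate 1 (0.24).

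Bag3 encodes the co-chaperone that links HSP70 to small heat shock proteins and to autophagy at the Z-disc, and its loss causes cardiomyopathy. It measured 10.29, 10.46 and 10.49 in control and 10.36, 10.30 and 10.23 in sickle, and the groups overlapped through control replicate 1. The difference was -0.12 ± 0.10 (95% interval -0.34 to 0.11, limma adjusted p = 0.747).

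The cytosolic genes ordered the mice of a group alike. Control replicate 1 was the lowest and control replicate 3 the highest control array for 7 of 7 cytosolic members. Among sickle arrays, replicate 2 was the highest for 6 of 7, Bag3 being the other, and replicate 1 the lowest for 5 of 7. For 6 of 7 the range within at least 1 group was larger than the difference between groups. The same held for 2 of 2 mitochondrial members, so it does not set the cytosolic genes apart. The share of all genes with such a range was not counted. Of the mitochondrial pair, Hspd1 had the same lowest and highest control arrays, within a range of 0.07, while Hspe1 was highest in control replicate 1. Medians of other lists described below also rose through control replicates 1, 2 and 3. They were -0.11, 0.02 and 0.10 for endoplasmic reticulum chaperones and -0.05, 0.02 and 0.05 for HSP90 co-chaperones. TRiC, the cytosolic chaperonin, and the other cytosolic HSP70 machinery had the same order. Heat shock factors, small heat shock proteins and other mitochondrial chaperones did not. The share of all genes in this order was not counted.

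Hspd1 measured 10.22, 10.23 and 10.29 in control, a range of 0.07, and 10.09, 10.16 and 9.51 in sickle. Every sickle array was below the dimmest control, narrowly in replicates 1 and 2 and clearly in replicate 3. The difference was -0.32 ± 0.17 (95% interval -0.72 to 0.08), or 0.799-fold, with a limma adjusted p of 0.625. Hspe1 measured 7.83, 7.62 and 7.62 in control and 7.40, 7.44 and 6.76 in sickle. It showed the same layout as Hspd1, with sickle replicate 3 the lowest array, and a difference of -0.49 ± 0.19 (95% interval -0.92 to -0.06), or 0.712-fold (unadjusted p = 0.0314, limma adjusted p = 0.549).

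Sickle replicate 3 supplied much of both mitochondrial values. Without it, Hspd1 differed by -0.12 (unadjusted p = 0.234, limma adjusted p = 0.735) and Hspe1 by -0.27 (unadjusted p = 0.0385, limma adjusted p = 0.522). Fibroblast and macrophage markers were high in that array, as given above, and the cardiomyocyte median there was -0.10, against 0.09 and 0.00 in sickle replicates 1 and 2. Their part in the Hspd1 and Hspe1 values was not tested.

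**Figure D3:**
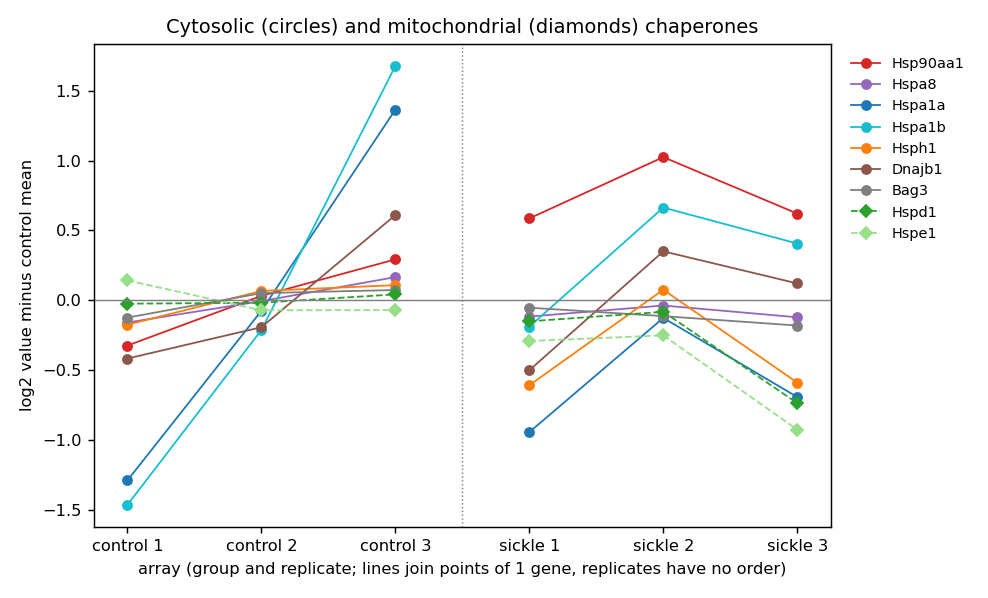
Log2 value minus the control mean (vertical axis) for each of the 9 genes in each array (horizontal axis), with circles and solid lines for cytosolic genes and diamonds and dashed lines for the mitochondrial pair; lines only join the points of 1 gene. Cytosolic genes spread from -1.46 to 1.68 in the controls while Hspd1 and Hspe1 stay between -0.07 and 0.14 there, and both are lowest in sickle 3, at -0.74 and -0.93.

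Set side by side, the median difference was -0.09 over the 7 cytosolic genes (range -0.59 to 0.74) and -0.41 over the mitochondrial pair, against a median of -0.01 over all genes. By array, the cytosolic median relative to the control mean was -0.32, -0.01 and 0.29 in the controls and -0.19, 0.08 and -0.12 in the sickle arrays, so the sickle values lay within the control range. The mitochondrial median was 0.06, -0.04 and -0.01 in the controls and -0.22, -0.17 and -0.83 in the sickle arrays, all sickle values below all control values. The cytosolic median minus the mitochondrial one was -0.38, 0.04 and 0.31 in the controls and 0.03, 0.24 and 0.71 in the sickle arrays. These overlapped between groups, since 2 of the sickle values lay within the control range. Without control replicate 3 the cytosolic median turned to 0.09, while without sickle replicate 3 the mitochondrial median was -0.19. Since the genes were chosen with results of these arrays known, no p is given for these medians.

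**Figure D4:**
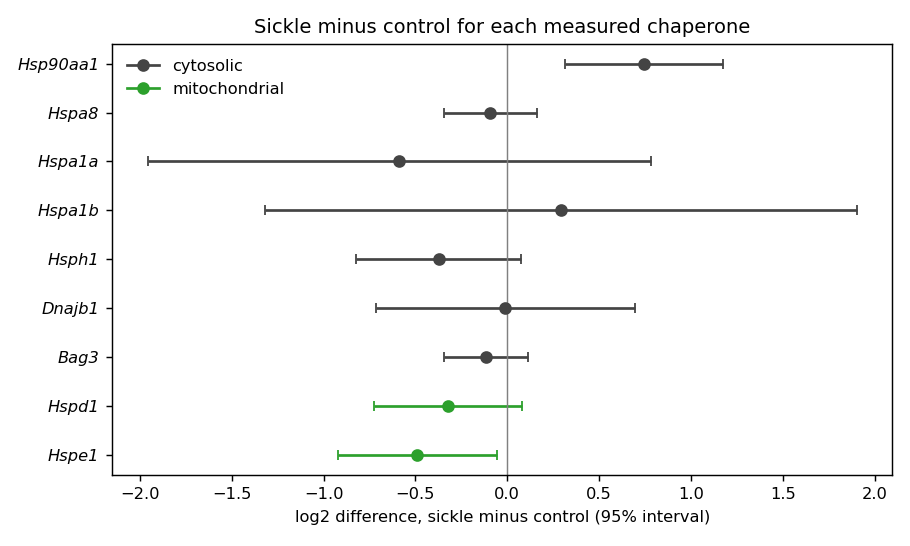
Sickle minus control log2 difference (horizontal axis) with its 95% interval from limma for each measured gene, cytosolic in grey and mitochondrial in green. The intervals of Hsp90aa1 (0.31 to 1.17) and Hspe1 (-0.92 to -0.06) leave out 0 before adjustment for multiple tests, and those of Hspa1a and Hspa1b are the widest of the 9.

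The rest of the chaperone network was described from 7 lists of 83 genes, of which 76 were measured. None passed in either direction (0 of 76 by limma after adjustment), and 6 of 76 were lower and 0 higher at an unadjusted p under 0.05, where 4.38% and 4.30% of all genes were. In all, 58 of 76 were lower and 18 higher in sickle, with a median of -0.10. Over all 21506 genes, 11089 were lower and 10411 higher. The sickle values were below all control values for 10 of 76 and above them for 0, against 8.36% and 7.61% of all genes.

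Hsf1 was not among the genes tested. Of the 4 measured factors and regulators, Hsf2, a second heat shock factor, had the smallest p, with 7.55, 7.34 and 7.55 in control and 7.32, 7.24 and 7.07 in sickle (difference -0.27 ± 0.11, limma adjusted p = 0.564). Hsf5 was next, at 0.15 ± 0.11. All 6 measured small heat shock proteins, the holdases that bind unfolding sarcomere proteins, were lower, by a median of -0.14 (-0.09 without sickle replicate 3 and -0.08 without both replicates 3). Hspb1 (HSP25) had -0.27 ± 0.13 and Cryab, alpha-B crystallin, -0.18 ± 0.12.

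Of 19 further genes of the cytosolic HSP70 machinery, 10 were higher and 9 lower, with a median of 0.02 whose sign varied with the array left out (-0.04 to 0.05). Hspa2, an HSP70 best known from testis, had 0.40 ± 0.18, and Dnajb2, an HSP40, -0.29 ± 0.12 (limma adjusted p of 0.580 and 0.574). Of 10 co-chaperones of HSP90, 9 were lower with a median of -0.16, which was -0.07 without sickle replicate 3 and -0.285 without sickle replicate 2. Unc45b, the myosin chaperone of striated muscle, measured 8.98, 9.14 and 9.18 in control and 8.90, 8.77 and 8.49 in sickle, without overlap (-0.38 ± 0.13, limma adjusted p = 0.504). Stip1, which bridges HSP70 and HSP90, also did not overlap (-0.30 ± 0.13, limma adjusted p = 0.583). Of these 10, 9 differed in the direction opposite to Hsp90aa1, and the difference between them was not tested.

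The cytosolic chaperonin TRiC, which folds actin and tubulin, had 7 of 8 subunits lower, by a median of -0.13 (-0.08 without sickle replicate 3 and -0.07 without both replicates 3), with Cct3 at -0.21 ± 0.09 and Cct7 at -0.18 ± 0.09. Among 15 other mitochondrial chaperones and proteases, 13 were lower with a median of -0.10. Clpx, the unfoldase of the matrix protease, measured 9.28, 9.20 and 9.18 in control and 8.89, 8.98 and 8.71 in sickle (-0.36 ± 0.10, limma adjusted p = 0.437), and Clpb, a disaggregase, had -0.21 ± 0.11. Without sickle replicate 3 the median of the 15 differences was -0.04. By array, the list median was -0.27 in sickle replicate 3 but -0.01 and -0.02 in replicates 1 and 2, where Hspd1 and Hspe1 had -0.15 and -0.29, and -0.08 and -0.25. Of 14 measured chaperones of the endoplasmic reticulum, 11 were lower with a median of -0.06, or -0.16 without control replicate 1; Manf, a secreted stress factor, had -0.33 ± 0.10 and Sdf2l1, a partner of the luminal HSP70, -0.42 ± 0.18 (limma adjusted p of 0.472 and 0.574).

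**Figure D5:**
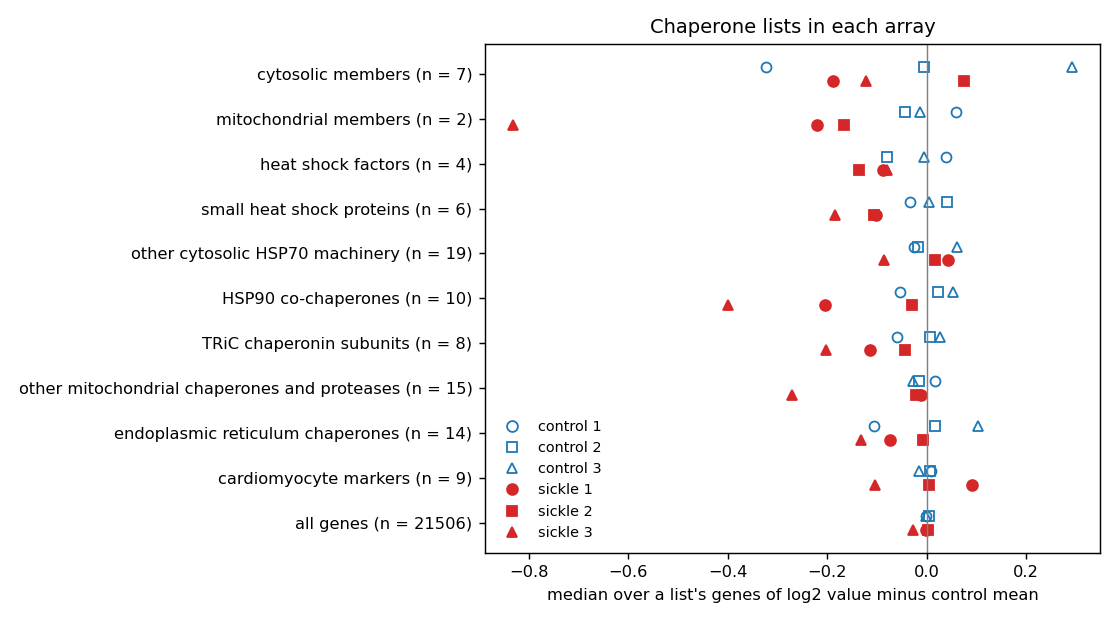
Median over the genes of each list of the log2 value minus the control mean (horizontal axis), 1 point per array, with open blue symbols for control and filled red symbols for sickle. The mitochondrial pair in sickle 3 lies at -0.83, farthest from 0, and the cytosolic genes spread from -0.32 to 0.29 among the controls.

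Genes with the most similar profile over the 6 arrays were sought by the root mean square distance between centred log2 values. The members and genes with predicted or numbered symbols were passed over. Nearest to the mean profile of the cytosolic members were Psg22 (0.14), Resf1 (0.16), Bnipl (0.17), Nipal2 (0.17) and Noxred1 (0.17). Nearest to that of Hspd1 and Hspe1 were Tmod4 (0.05), Necab1 (0.06), Fgf16 (0.06), Fndc5 (0.06) and Hdhd3 (0.07). With 6 arrays and so many genes to choose from, these are descriptions of these arrays.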

How the data were processed

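Expression in left ventricle was measured on 6 arrays, 3 sickle and 3 control, grouped by the sample titles. Per the submitters' processing notes, the authors ran RMA (background correction, quantile normalisation and probe summary) and their deposited table holds its log2 output, a scale judged by the range of the numbers. No RMA version or setting was given in the sources used here. Quantile normalisation sets all arrays to 1 distribution, so a shift shared by most genes would not show, and probes of near-identical genes can cross-hybridise. Of 25293 rows, 22030 had 1 symbol, which gave 21506 genes (brightest row per gene, no filter on dim genes). No symbol needed updating through the RefSeq gene numbers, which matched 21930 rows. RefSeq promoter windows matched 7 of the 10 members by symbol.

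Limma 3.58.1 in R 4.3.3 (lmFit, eBayes, group as the only term, two-sided, Benjamini-Hochberg over all genes at 0.05) was tested on simulated data before use. There it called 17 of 67 genes shifted 1.5-fold (25.4%), 44 of 67 shifted 2-fold (65.7%) and 63 of 66 shifted 4-fold (95.5%). It also called 2 unchanged genes. A gene that did not pass may therefore still differ by 1.5-fold or 2-fold. Standard errors are moderated, with 4 residual and 3.61 prior degrees of freedom. Permutation tests were exact and two-sided. The number of arrays limits the precision. The members and lists were chosen with earlier results of these data known. All members are named. From each chaperone list, genes past the adjustment and the 2 with the smallest p are named. The 5 genes nearest in profile are named after predicted or numbered symbols were passed over. A planned search of protein sequences was not run. Alternatives covered the variance model, dim genes, normalisation, centring, array weights, the replicate number, single arrays left out, the mean over rows and unshared variance; leaving out both replicates 3 and testing every row were added after seeing the data. Figures used matplotlib 3.10.9.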

Additional observations from a re-analysis of the deposited data

How the results depend on the processing

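No member was called by limma under any of the 15 alternatives, and Hsp90aa1, Hsph1, Hspd1, Hspe1 and Bag3 kept their direction in all 15. Some of the 15 could not turn a sign. The variance model, the filter on dim genes, the replicate block and unshared variance leave every difference as it was. The mean over rows does so for a gene with 1 row, as these genes had. Signs turned for Hspa1a without control replicate 3 (0.0946; -1.23 to 0.0946 with 1 array left out) and without both replicates 3 (0.15), for Hspa1b without control replicate 1 (-0.44; -0.44 to 1.13 with 1 array left out), for Hspa8 without both replicates 3 (0.0056), and for Dnajb1 without control replicate 3, without sickle replicate 1 and without both replicates 3 (0.295, 0.24 and 0.23). The cytosolic median was -0.22 to 0.0946 with 1 array left out and 0.15 without both replicates 3, where the mitochondrial median was -0.20; the mitochondrial median was -0.53 to -0.19 with 1 array left out. The count of all genes called, 39, was 4 to 36 with 1 array left out (4 without control replicate 3, 36 without sickle replicate 1), 0 without both replicates 3 and 0 without shared variance. The fits that leave out arrays have fewer samples; the cause was not otherwise tested. The replicate numbers were not taken to pair the mice, though so few arrays cannot exclude a pairing. Deviations of same-numbered arrays correlated at 0.11, -0.05 and 0.05. Control replicates 1 and 3 and sickle replicate 1 were closest to their own number, and the other arrays were not. With the replicate block 12 genes and 0 members were called. Spots near background were not flagged in the deposited values, so no limit from signal over background is given.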

Other observations

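Immediate early genes encode factors that cells switch on within minutes of many stimuli. Of 8 such genes, 6 were higher in sickle with a median of 0.42, or 0.24 without sickle replicate 3. None passed after adjustment by limma (0 of 8), and 3 were higher at an unadjusted p under 0.05, against 4.30% of all genes. These were Ier2 (0.45 ± 0.15), Fosb (0.46 ± 0.15) and Egr1 (0.68 ± 0.26, named after its values were seen). Egr1 measured 7.51, 6.82 and 6.36 in control replicates 1, 2 and 3 and 7.53, 7.63 and 7.57 in the sickle arrays. Fosb measured 5.26, 5.54 and 5.35 in control and 5.86, 6.11 and 5.57 in sickle. Relative to the control mean, the list's median was -0.04, 0.06 and 0.01 in the controls and -0.02, 0.33 and 0.45 in the sickle arrays. Cirbp, a cold-inducible RNA-binding protein, measured 6.98, 6.73 and 6.83 in control and 7.03, 6.52 and 6.71 in sickle. Its difference was -0.09 ± 0.15 (limma adjusted p = 0.875) and turned to 0.03 without sickle replicate 2.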
